A study of Mus musculus with 2 samples.

Results

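The TGF-beta and BMP pathway was followed in differentiating 3T3-L1 cells in which Phf21a had been reduced by siRNA. Its genes were taken by symbol: the BMP and GDF genes, the activin and inhibin beta subunits, the TGF-beta ligands with their latent binding proteins, the receptors, the Smads, the Id genes, and a set of secreted antagonists, nuclear corepressors and ubiquitin ligases. The array carried 130 probe sets for 63 such genes, of 45101 probe sets in all and 18193 genes with a probe set of their own. 3T3-L1 is a clonal mouse preadipocyte line. Control cells received siGL3, an siRNA against luciferase, and the other cells an siRNA against Phf21a, which encodes the histone-reading protein BHC80. Both cultures were induced with insulin, dexamethasone and the phosphodiesterase inhibitor 3-isobutyl-1-methylxanthine 24 h after transfection and were harvested 24 h after induction. Medium was DMEM with 25 mM glucose and 10% FBS in both. Each group was 1 array, which leaves every value without an error from replicates, and no test was run.

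In this pathway, dimeric ligands bind pairs of type I and type II serine/threonine kinase receptors. BMP receptors phosphorylate Smad1, Smad5 and Smad9, activin and TGF-beta receptors phosphorylate Smad2 and Smad3, and either set enters the nucleus with Smad4. Smad6 and Smad7, the Smurf ubiquitin ligases and the Ski family hold the signal back, and the Id genes, which encode partners that block basic helix-loop-helix factors, are classic BMP targets. In fat precursors, TGF-beta is known as an inhibitor of adipogenesis, whereas BMP ligands can commit precursors to the fat lineage.

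Signals are MAS5 intensities on a linear scale. They were set against common limits for detection and brightness but were not otherwise compared between genes. A gene was counted as detected when at least 1 of its signals was 51.3 or more (the median over both arrays together) and is represented by its brightest detected probe set. Each log2 ratio is Phf21a siRNA over control and is followed by ± a local spread, the scatter of the 1000 detected genes nearest in signal. That spread contains any true differences and does not measure how cultures vary. "Higher" and "lower" refer to the Phf21a siRNA array. The arrays had median signals of 53.0 (control) and 49.5 (Phf21a siRNA). The poly-A control RNAs read higher on the Phf21a siRNA array by a median of 0.73 (log2) and the hybridisation controls by 0.23. Scaling to the poly-A controls lowers nearly every ratio below by 0.73, and the median of all genes from 0.03 to -0.70, so directions hold relative to the other genes on the arrays. Phf21a itself read 768 in control cells and 306 after its siRNA, a log2 ratio of -1.33. Of 8 fibroblast and preadipocyte markers 7 were detected, 1 of them at least 1.5-fold higher (Pdgfrb, 2092 and 3743) and 1 lower (Dlk1, 12290 and 5940), with a median of -0.16. Of 5 fat-cell markers on the array 3 were detected. Fabp4 (3502 and 5849) and Pparg (512 and 814) were at least 1.5-fold higher, Lpl read 3614 and 3253, and Adipoq (12.5 and 26.5) and Cebpa (45.0 and 12.0) were under the detection limit. Endothelial markers were detected in 0 of 4 cases. Of 4 epithelial markers 2 were detected, Epcam (146 and 79.5, at least 1.5-fold lower) and Krt8 (61.9 and 57.1). Of 4 muscle markers 1 was detected, Des (94.2 and 76.9). Of 7 leukocyte markers 4 were detected and 3 of these were at least 1.5-fold higher, with summed signals of 797 and 1447, while Ptprc, Tyrobp and Cd52 were under the limit on both arrays. The part of these cell types and states in the values below was not tested, and in bulk RNA fewer cells of a type and less RNA per cell cannot be told apart.

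Of the 63 genes, 45 were detected. Of these, 10 were at least 1.5-fold higher, or 22.2%, against 15.2% of all 11301 detected genes, and 8 were at least 1.5-fold lower, or 17.8%, against 13.9%. At least 2-fold, 4 were higher and 2 lower, where all detected genes gave 5.72% and 5.47%. The members' median log2 ratio was 0.27 and that of all detected genes 0.03. After scaling to the poly-A controls the members' median was -0.46, with 7 of 45 above 0 in place of 29, and after scaling to the hybridisation controls it was 0.040. Among the 34 members whose higher signal reached 461, the 75th percentile of all signals, 8 (23.5%) were higher and 4 (11.8%) lower, against 12.9% and 10.1% of all such brighter genes. The log2 ratio was larger than the local spread in 23 of the 45 members (51.1%) and in 32.8% of all detected genes. The shares of members past 1.5-fold thus stood a few points above the background in either direction, on a single pair of arrays.

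**Figure D1:**
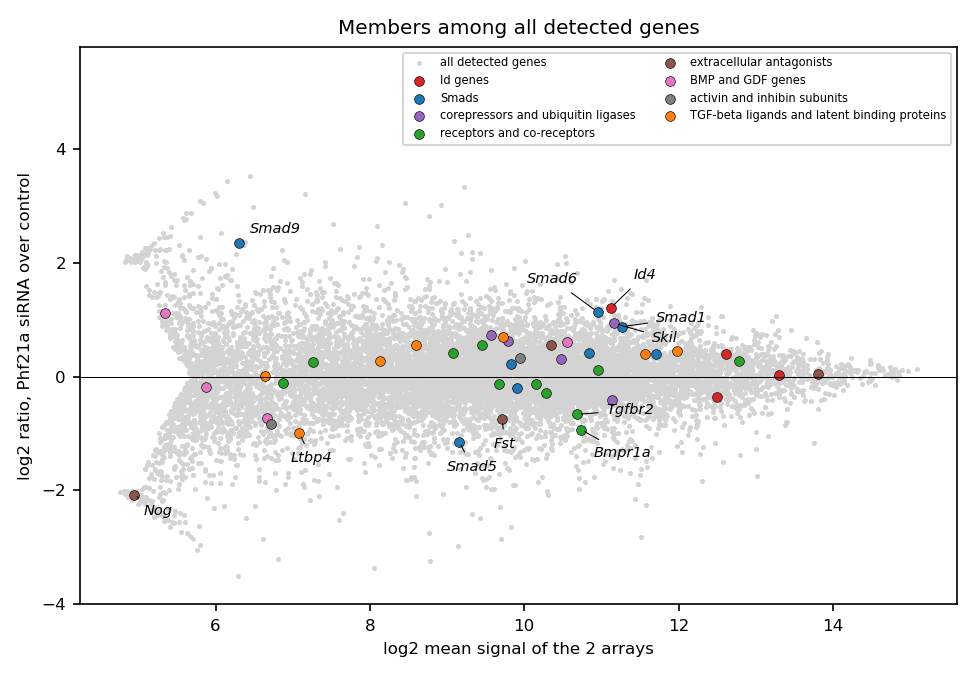
Log2 ratio (Phf21a siRNA over control) against log2 mean signal for the 11301 detected genes (grey) and the 45 detected members, coloured by role. Most members lie inside the grey band; Id4, Smad6, Smad1 and Skil sit on its upper side at high signal, Smad5, Bmpr1a and Tgfbr2 on its lower side, and Smad9 and Nog in the scattered low-signal region.

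The Id genes were all detected, and Id4 alone passed 1.5-fold on its brightest probe set. That is 1 of 4 (25%) higher, where all detected genes gave 15.2%. Id4, which like its relatives encodes an inhibitor of basic helix-loop-helix factors, read 1344 in control cells and 3105 after Phf21a siRNA (Entrez gene 15904). It was 2.31-fold higher, with a log2 ratio of 1.21 ± 0.44. Its other probe sets read 676 and 1181, and 563 and 1171, so all 3 were higher, by 0.81 to 1.21. Id3 read 5409 and 7137, a log2 ratio of 0.40 ± 0.33. Id1 was nearly level at 9956 and 10192 (0.03 ± 0.31). Id2 read 6524 and 5090 on its brightest probe set (-0.36 ± 0.34), 3642 and 3509 on the next (-0.05) and 141 and 213 on the dimmest (0.60), so its direction depended on the probe set. Scaling to the poly-A controls left Id4 at 0.48 and put Id3 at -0.32, Id1 at -0.69 and Id2 at -1.08. On the brightest probe sets, ranges of 1 local spread overlapped between Id3 and Id1 and between Id1 and Id2, and narrowly missed between Id4 and Id3. The other Id4 probe sets, at 0.81 and 1.06, lay nearer to Id3. Such ranges do not test a difference between genes.

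The sequences just upstream of Id2, Id3, Id4 and Smad6 are shown because each has been described as a BMP target, and Id4 and Smad6 were more than 2-fold higher while Id2 and Id3 were not. They are the 250 bases before the RefSeq transcription start (build GRCm38.p6), 5′ to 3′ on the gene's own strand, for Id2 (chr12:25096093-25096342, minus strand), Id3 (chr4:136143572-136143821, plus strand), Id4 (chr13:48260866-48261115, plus strand) and the inhibitory Smad6 (chr9:64022060-64022309, minus strand). Capitals mark the GC-rich BMP motif GGCGCC or the Smad box CAGAC with its reverse complement GTCTG. Sequences of Id1 (log2 ratio 0.03) and Smad7 (0.23) are not shown, so those below leave out BMP targets that were nearer level.
Id2: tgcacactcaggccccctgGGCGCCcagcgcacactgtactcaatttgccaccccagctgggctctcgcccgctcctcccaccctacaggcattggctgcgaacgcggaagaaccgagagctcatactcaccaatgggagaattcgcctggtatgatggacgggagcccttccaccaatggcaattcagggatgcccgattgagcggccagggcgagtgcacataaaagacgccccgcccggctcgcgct
Id3: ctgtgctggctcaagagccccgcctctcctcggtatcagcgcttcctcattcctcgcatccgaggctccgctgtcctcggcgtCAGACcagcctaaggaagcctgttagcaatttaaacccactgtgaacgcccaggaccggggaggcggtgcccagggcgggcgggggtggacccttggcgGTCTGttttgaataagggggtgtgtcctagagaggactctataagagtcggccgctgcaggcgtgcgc
Id4: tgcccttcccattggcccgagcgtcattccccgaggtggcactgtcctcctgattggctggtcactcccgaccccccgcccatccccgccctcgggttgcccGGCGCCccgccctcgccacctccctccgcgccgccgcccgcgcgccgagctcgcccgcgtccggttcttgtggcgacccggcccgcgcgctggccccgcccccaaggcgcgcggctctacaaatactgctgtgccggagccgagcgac
Smad6: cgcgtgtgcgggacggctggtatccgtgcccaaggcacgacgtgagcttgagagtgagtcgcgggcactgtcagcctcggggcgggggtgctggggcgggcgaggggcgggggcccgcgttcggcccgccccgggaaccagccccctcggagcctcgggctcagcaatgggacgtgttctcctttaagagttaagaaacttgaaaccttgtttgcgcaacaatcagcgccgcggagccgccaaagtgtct
Id4 held GGCGCC from -148 to -143 and Id2 from -231 to -226, counted from the transcription start. Id3 held the Smad box at -167 to -163 and, in reverse, at -68 to -64. Smad6 held none of the letters searched in this window, which says nothing of sites elsewhere. GC content was 75.6% for Id4, 66.8% for Smad6, and 62.8% for both Id2 and Id3. On either strand, GGCGCC occurred in 9.59% of the 32851 RefSeq promoters of the same length and CAGAC in 42.2%. Of the 45 detected members 33 had an entry, 8 of them at least 1.5-fold higher and 6 lower. Detected members without an entry were not searched. GGCGCC was found for 3 of the 8 higher genes (Id4, Smad9 and Ski), for 3 of the 6 lower genes (Smad5, Ltbp4 and Bmpr1a) and for 6 of the 19 in between. CAGAC was found for 2 of 8, 2 of 6 and 11 of 19. Members with several listed starts were counted once if any held the motif, which raises their share. The 33 members had 44 promoters between them, and the parts of extra starts and of GC content in these shares were not tested. Neither the Smad palindrome GTCTAGAC (0.167% of all promoters) nor the longer BMP response element, GGCGCC followed after 5 bases by GTCT (0.07%), was found in the members searched.

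The BMP-activated Smads had ratios on either side of 0. All 8 Smads were detected, and 3 passed 1.5-fold upwards (37.5%, where all detected genes gave 15.2%) and 1 downwards (12.5%, near the 13.9% of all). Their median was 0.41 and became -0.31 under poly-A scaling. Smad1, a BMP-activated Smad, read 1742 in control cells and 3209 after Phf21a siRNA (Entrez gene 17125), a log2 ratio of 0.88 ± 0.43. Its other probe sets were at 0.77 and 0.32. Smad5, which shares that role, went the other way, from 786 to 356 (Entrez gene 17129), 2.21-fold lower at -1.14 ± 0.52. Of its other probe sets, one was at -0.92 (344 to 181) and one close to level at -0.11 (374 to 346). Smad9, the remaining member of this trio, was dim, at 25.9 and 132, and the control signal did not reach the detection limit. Its log2 ratio was 2.35 ± 0.74 as measured and 1.37 with the control signal raised to that limit.

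Smad6, which blocks BMP receptor signalling and is itself induced by BMP, read 1243 and 2729 on its single probe set (Entrez gene 17130). It was 2.20-fold higher, at 1.13 ± 0.46. Smad7, the other inhibitory Smad, read 839 and 985 (0.23 ± 0.49), and its second probe set gave 0.26. The ratios of this inhibitory pair therefore differed by more than either local spread, which does not test a difference between them. In the TGF-beta and activin branch, Smad2 read 1562 and 2095 (0.42 ± 0.45), but a dimmer probe set lay on the opposite side at 201 and 74.8 (-1.42). Smad3 read 1024 and 897 (-0.19 ± 0.48), with its other probe sets at -0.42 and -0.36. Smad4, the common partner, read 2880 and 3812 (0.40 ± 0.41), with its other probe sets at -0.02 and -0.0050. No Smad outside the BMP branch and its inhibitor Smad6 passed 1.5-fold on its brightest probe set.

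**Figure D2:**
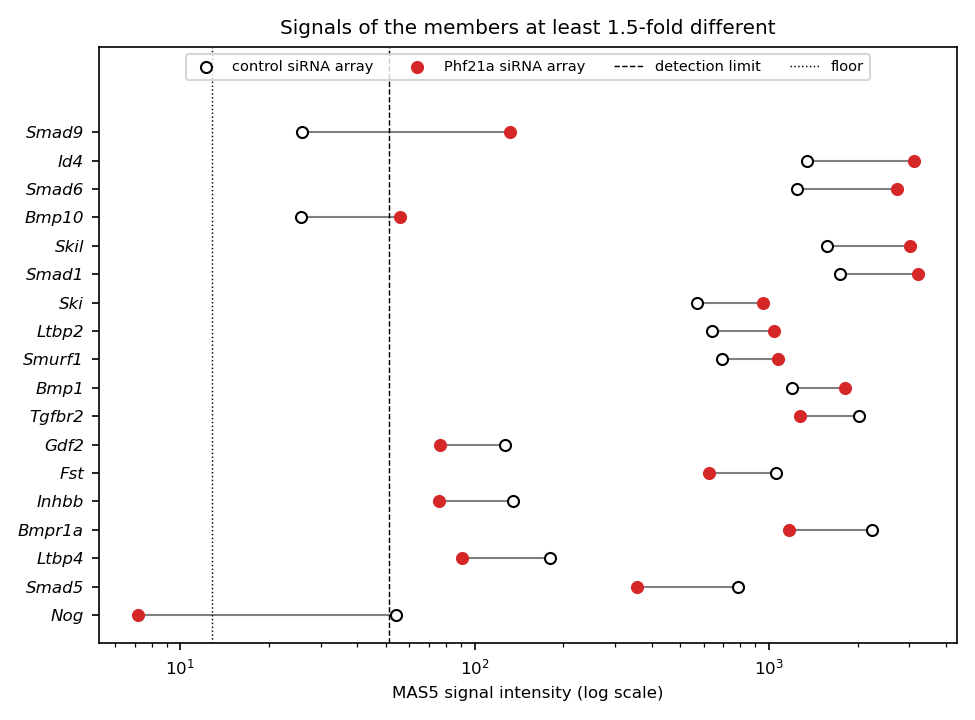
Signals on the control siRNA array (open circles) and the Phf21a siRNA array (red) for the 18 members at least 1.5-fold different, on a logarithmic intensity axis; the dashed line is the detection limit of 51.3 and the dotted line the floor of 12.9. The 10 genes at the top were higher and the 8 at the bottom lower, and Smad9, Bmp10 and Nog each had 1 signal under the detection limit.

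Among 5 corepressor and ubiquitin ligase genes, Skil, Ski and Smurf1 were at least 1.5-fold higher and 0 lower (all detected genes gave 15.2% and 13.9%), with a median of 0.63, and 2 of the 5 remained above 0 under poly-A scaling. Skil, which encodes SnoN, a Ski-family corepressor that TGF-beta both degrades and re-induces, read 1575 and 3023 (Entrez gene 20482). It was 1.92-fold higher, at 0.94 ± 0.45, and its second probe set was at 0.71 (261 to 429). Ski itself read 571 and 952 (0.74 ± 0.51), but its second probe set gave 580 and 455 (-0.35), so the probe sets disagreed on direction. Tgif1, a homeodomain corepressor of Smad2 and Smad3, read 1277 and 1579 (0.31 ± 0.46). Smurf1 and Smurf2, HECT-type ubiquitin ligases that mark Smads and receptors for degradation, went opposite ways. Smurf1 read 694 and 1076 on its brightest probe set (0.63 ± 0.49, and -0.093 under poly-A scaling) and 330 and 1112 on the other (1.75). Smurf2 read 2570 and 1935 on its brightest (-0.41 ± 0.44), and its other probe sets were at -0.85 (2607 to 1450) and -0.73 (1046 to 633). All probe sets of Smurf1 were thus higher and all those of Smurf2 lower before control scaling, with poly-A scaling turning the brightest of Smurf1.

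The 11 detected receptor genes included 2 that were lower by at least 1.5-fold, or 18.2%, near the 13.9% of all detected genes, and 0 that were higher, with a median of -0.10. Bmpr1a, the type I BMP receptor ALK3, read 2241 in control cells and 1174 after Phf21a siRNA (Entrez gene 12166), 1.91-fold lower at -0.93 ± 0.46. All 5 of its detected probe sets were lower, from -1.11 to -0.15. The one at -1.11 was dim, at 60.6 and 28.1, with the Phf21a siRNA signal under the detection limit. Tgfbr2, the type II receptor that binds TGF-beta ligands, read 2020 and 1277 (Entrez gene 21813), a log2 ratio of -0.66 ± 0.47. A second probe set of Tgfbr2 was lower still, at 273 and 101 (-1.43).

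The partners of these receptors were closer to level. Bmpr2, the type II BMP receptor, read 1903 and 2072 (0.12 ± 0.46), though a dimmer probe set gave 437 and 808 (0.89). Tgfbr1, the type I TGF-beta receptor, read 1184 and 1084 (-0.13 ± 0.46), and its probe sets ranged from -0.56 to 0.0034. Tgfbr3, the co-receptor betaglycan, read 6358 and 7698 (0.28 ± 0.33). Among the genes named as activin receptors, Acvr1 read 1367 and 1119 (-0.29 ± 0.47), Acvr2a 851 and 782 (-0.12 ± 0.50) and Acvr1b 464 and 618 (0.41 ± 0.51). These names do not settle which ligands each receptor serves. The second probe sets of Acvr2a (0.40) and Acvr1b (-0.49) pointed the other way. Tgfbrap1, which encodes a protein that associates with TGF-beta receptors and falls under the same symbol pattern, read 569 and 837 (0.56 ± 0.53). The dimmer Eng (139 and 167) and Bambi (121 and 113), a co-receptor and a decoy receptor, differed by less than their local spreads of 0.64 and 0.71. Acvr1c, Acvr2b, Acvrl1 and Bmpr1b were not detected, with highest signals between 34.4 and 50.6.

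**Figure D3:**
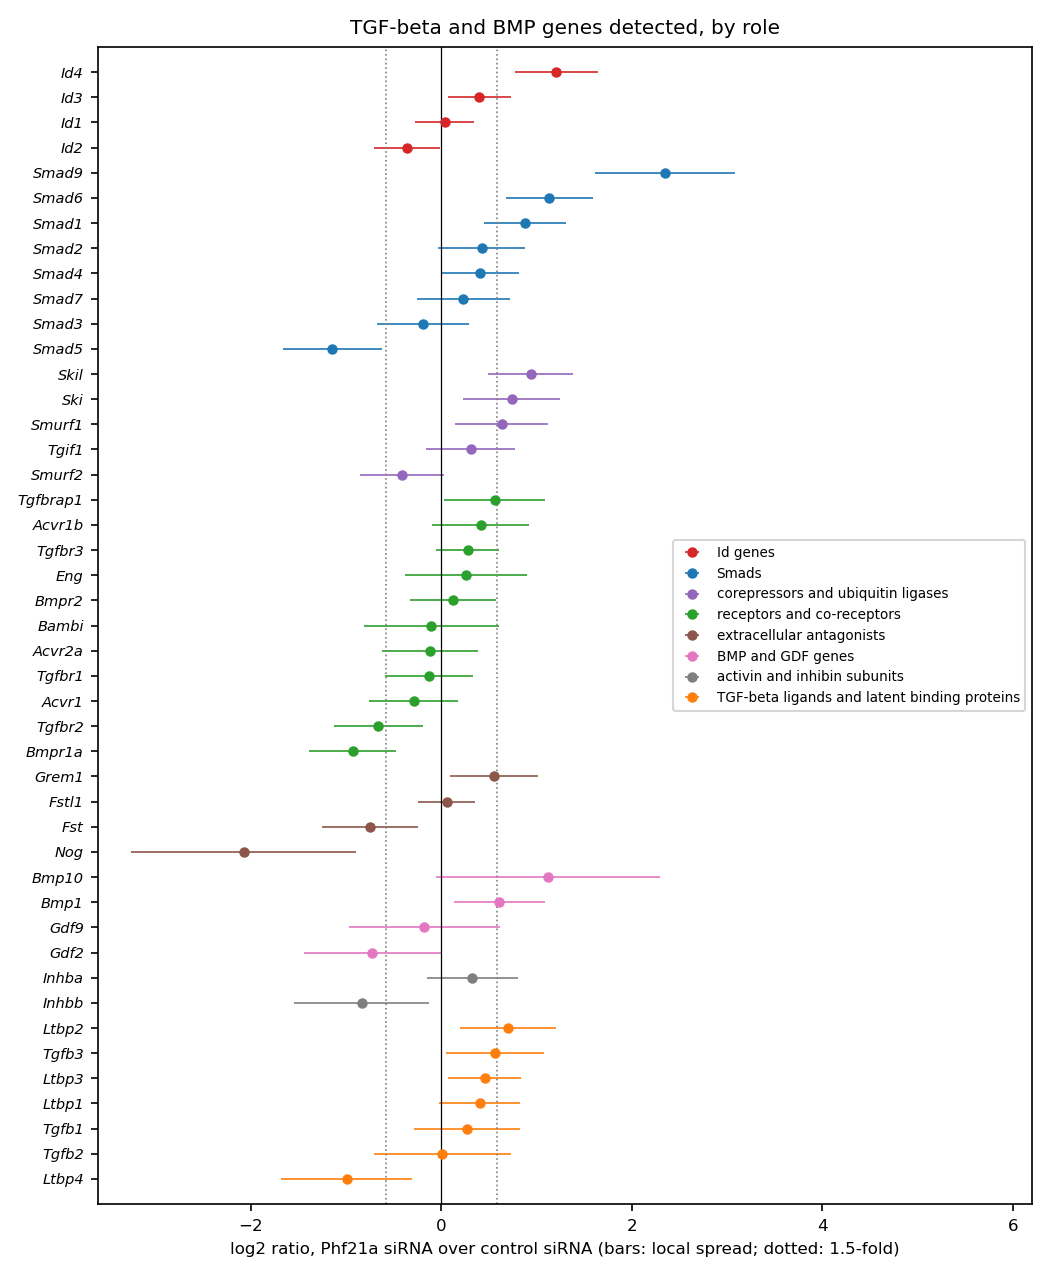
Log2 ratio (Phf21a siRNA over control) of the 45 detected members on their brightest detected probe sets, grouped by role, with bars of 1 local spread and dotted lines at 1.5-fold. Smads and corepressors are mostly to the right, with Smad5 at -1.14 to the left, and no receptor lies beyond the right dotted line; poly-A scaling would move nearly every point left by 0.73.

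Of 4 detected secreted antagonists 2 were at least 1.5-fold lower, 1 of them through low signals alone, and 0 higher, where all detected genes gave 13.9% and 15.2%. Fst, the activin-binding follistatin, read 1053 and 628 (Entrez gene 14313), 1.68-fold lower at -0.75 ± 0.50, with its second probe set at -0.50 (924 to 654). Nog, the BMP antagonist noggin, was at the limit of detection, with 54.1 on the control array and 7.17, under the floor of 12.9, on the Phf21a siRNA array. With both signals raised to the detection limit its log2 ratio was -0.08, so it counts as lower only through low signals. Grem1, another BMP antagonist, stood on the other side of 0 at 1061 and 1554 (0.55 ± 0.46, and -0.17 under poly-A scaling). Fstl1, a secreted follistatin-like glycoprotein, was level at 14034 and 14575 (0.05 ± 0.30), and its 2 probe sets agreed closely (0.05 and 0.06). Chrd and Fstl3 were under the detection limit.

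Most BMP and GDF ligand genes gave no detectable signal. Of 14 such genes 10 were not detected, Bmp2, Bmp4, Bmp5, Bmp6 and Bmp7 among them, with highest signals from 8.38 for Bmp2 to 50.5 for Bmp7. Of the 4 detected only Bmp1 was bright. Bmp1 is not a ligand in spite of its name but a metalloproteinase that processes procollagen and chordin, and it read 1195 and 1819 (0.61 ± 0.48, and -0.12 under poly-A scaling), with a second probe set at 0.96 (547 to 1065). Gdf2, which encodes BMP9, read 126 and 76.6 (-0.72 ± 0.72), a difference about as large as its spread. Bmp10 (25.7 and 55.8) and Gdf9 (62.6 and 55.3) were close to the detection limit, and Bmp10 was at 0.12 with its control signal raised to it. The arrays therefore hold little measurable signal for the ligands that activate the BMP receptors.

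Of the activin and inhibin subunits, Inhba and Inhbb were detected and differed in direction. Inhba, whose dimer is activin A, read 878 and 1101 (0.33 ± 0.47, and -0.40 under poly-A scaling). Inhbb, which forms activin B, was dim at 135 and 75.8 (-0.83 ± 0.71), and its second probe set was lower too, from 101 to 45.5 (-1.16). Inhbc and Inhbe were under the limit on both arrays.

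TGF-beta ligands and their latent binding proteins were above 0 in 6 of 7 cases. Under hybridisation scaling 5 of 7 were above 0, and under poly-A scaling 0 of 7. The share of all detected genes above 0 was not counted. At 1.5-fold, 1 of the 7 passed in each direction (14.3% each), near the 15.2% higher and 13.9% lower of all detected genes. Ltbp2, a matrix microfibril protein, read 642 and 1043 (0.70 ± 0.50, and -0.024 under poly-A scaling). Ltbp4, which tethers latent TGF-beta1 in the matrix, was lower, from 181 to 90.7 (-0.99 ± 0.69). Ltbp3 read 3400 and 4667 (0.46 ± 0.38), and its 4 probe sets ranged from 0.29 to 0.67. Ltbp1 read 2604 and 3442 (0.40 ± 0.42). Of the ligands, Tgfb3 read 313 and 462 (0.56 ± 0.51), Tgfb1 255 and 307 (0.27 ± 0.56) and Tgfb2 99.7 and 100 (0.01 ± 0.72). Tgfb1 and Tgfb2 therefore differed by less than their local spreads.

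Members measured by more than 1 detected probe set numbered 28. All their probe sets pointed the same way in 19 of them (67.9%), against 61.4% of all 5597 detected genes with several. All probe sets were at least 1.5-fold higher for Bmp1, Id4, Skil and Smurf1, and at least 1.5-fold lower for Inhbb and Tgfbr2. Over all genes with several probe sets, 5.02% and 5.43% met those criteria. Of the 18 members past 1.5-fold, 11 had several probe sets, and only Ski had them on both sides of 0. The matching share over all genes past 1.5-fold was not counted, so this is no trait particular to the members. The other 7, Smad6, Smad9, Ltbp2, Ltbp4, Nog, Gdf2 and Bmp10, rested on a single detected probe set. Probe sets of a gene were read from the same RNA and are not replicates.

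**Figure D4:**
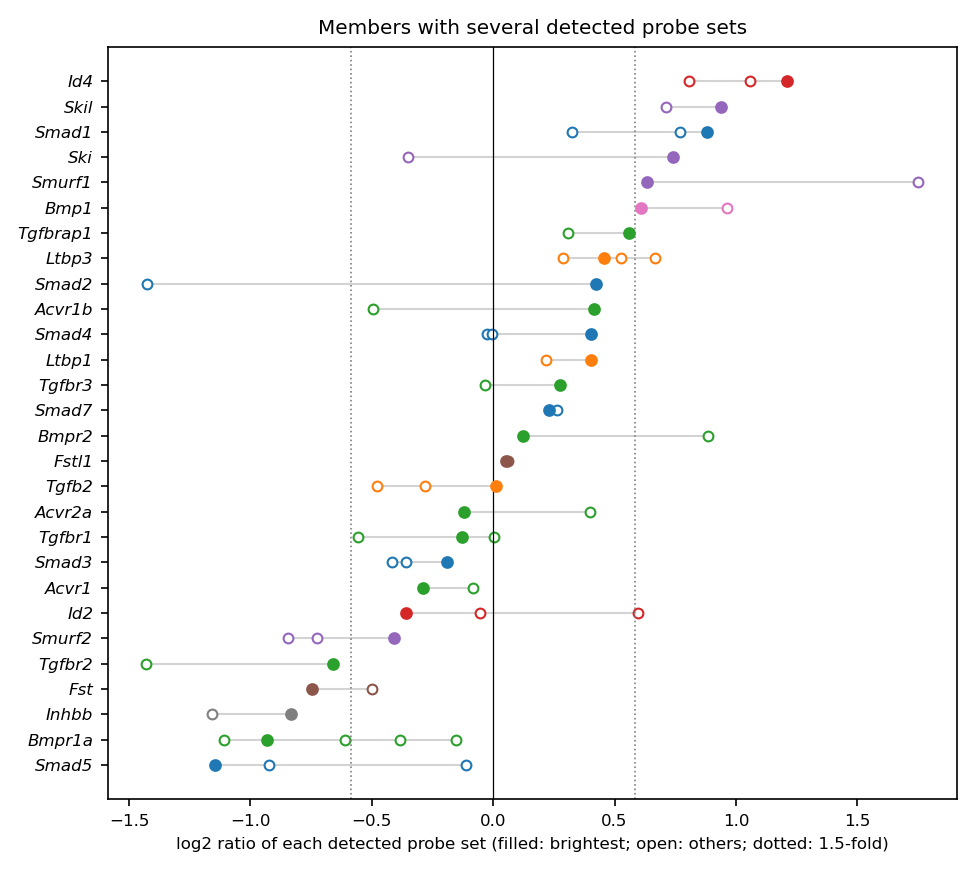
Log2 ratio of every detected probe set for the 28 members with more than 1, the brightest filled and the others open, coloured by role as in the plot of members by role; dotted lines mark 1.5-fold. Id4, Skil, Smurf1 and Bmp1 lie wholly beyond the right line and Inhbb and Tgfbr2 beyond the left, whereas Smad2, Ski, Id2 and Acvr1b span 0.

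Further genes of the pathway, from a list of processing enzymes, antagonists, adaptors and Smad regulators, were near the background. Of 71 on the array 50 were detected, with 5 at least 1.5-fold higher (10%, against 15.2% of all genes) and 6 lower (12%, against 13.9%), and a median of 0.07. Tll1, a relative of Bmp1 that also cleaves chordin, was 2.47-fold higher (255 to 632, 1.31 ± 0.54). Itgav, the alpha V integrin that can release active TGF-beta from its latent complex, read 3465 and 7194 (1.05 ± 0.34), and its 3 probe sets lay between 1.02 and 1.30. The other integrin genes of the list, Itgb6 (23.3 and 2.86) and Itgb8 (20.9 and 12.8), were under the detection limit. Release of TGF-beta was not measured. Ctdsp2, a phosphatase that can act on Smads, was lower at 4514 and 1014 (-2.15 ± 0.44), but its 3 probe sets reached -0.21. The E proteins that Id proteins bind were not past 1.5-fold, with Tcf3 at -0.28, Tcf4 at -0.05 and Tcf12 at 0.46.

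Genes commonly induced by TGF-beta were spread to either side of 0. Of 30 detected, 5 were at least 1.5-fold higher (16.7%) and 4 lower (13.3%), again close to 15.2% and 13.9%, with a median of 0.06. Pmepa1, a TGF-beta-induced inhibitor of Smad2 and Smad3, was 2.44-fold higher (1072 to 2616, 1.29 ± 0.46), with 3 probe sets between 1.15 and 1.65. Tagln, the actin-binding protein SM22, read 299 and 615 (1.04 ± 0.53), while the cytokine Il11 was lower at 626 and 146 (-2.10 ± 0.52). Ccn2, also known as Ctgf, a much used reporter of TGF-beta activity, was near level at 1408 and 1250 (-0.17 ± 0.46). Ccn2 and the Tcf genes were picked after their values were seen.

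Of the BMP-induced genes outside the Id and Smad families 9 were detected, 6 of them dimmer than the 75th percentile of signals. In all, 0 of the 9 were at least 1.5-fold higher and 5 were lower (55.6%, against 13.9% of all detected genes), with a median of -0.70. The 13.9% pools bright and dim genes. The brighter genes alone gave 10.1%, and the share among dimmer genes was not counted. The 5 were Sp7 (109 to 48.1, -1.17 ± 0.73), Msx1 (182 to 92.0, -0.98 ± 0.69), Gata2 (433 to 230, -0.91 ± 0.56), Zfp423 (63.7 to 36.1, -0.82 ± 1.00) and Hamp (81.7 to 50.2, -0.70 ± 0.72), named here after their values were seen. Of these, Zfp423 and Hamp differed by less than their local spreads. None of the 5 reached the 75th percentile of signals, 3 had their lower signal under the detection limit, and 4 stayed at least 1.5-fold lower with signals raised to it. The count of 5 became 3 under loess, 3 when all probe sets had to pass and 2 of 7 without suffixed probe sets, and the second probe sets of Msx1 (-0.17) and Gata2 (-0.37) did not pass. The 3 brighter genes of the list lay on the other side of 0, with Hes1 at 0.39 ± 0.53, Atoh8 at 0.31 ± 0.52 and Dlx2 at 0.25 ± 0.51, each within its spread and each below 0 under poly-A scaling.

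**Figure D5:**
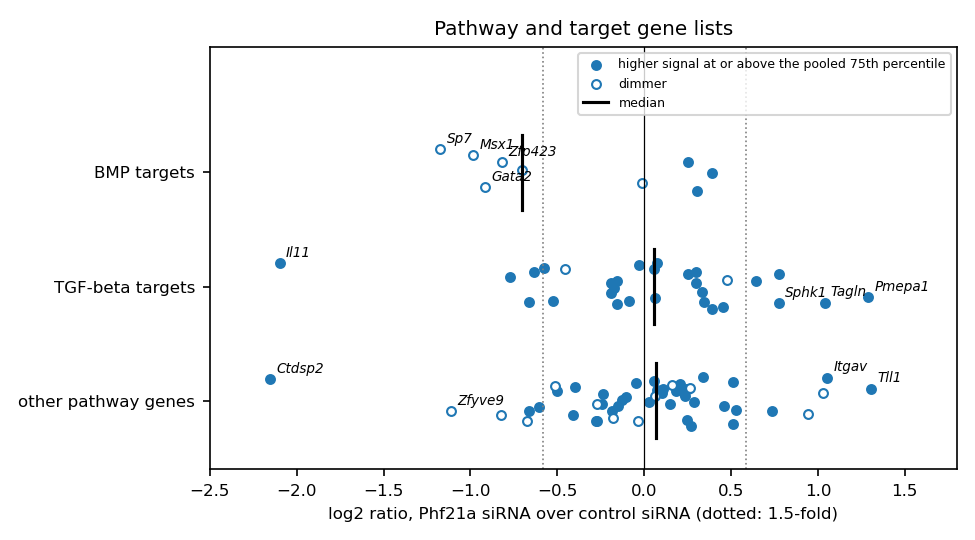
Log2 ratio (Phf21a siRNA over control) of the detected genes of 3 lists, filled where the higher signal reached the 75th percentile and open where dimmer, with a vertical bar at each list's median and dotted lines at 1.5-fold; vertical scatter within a list has no meaning. The lists of other pathway genes and of TGF-beta targets centre near 0 (0.07 and 0.06), and the BMP targets have their median at -0.70, with all dimmer genes at or below 0 and the 3 brighter genes above it.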

How the data were processed

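Total RNA from 2 cultures was hybridised to 1 Affymetrix mouse array each, and the sample descriptions gave the groups. The deposited values are signal intensity, made by the authors with MAS5 per the submitters' processing notes, with no version named. A mean trimmed of 2% of the signals at each end was 500.0 on both arrays, so amounts of RNA per cell cannot be compared. Detection calls were not used here.

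By the array's probe annotation 34945 probe sets had 1 gene, 932 several and 9160 none, and 64 were controls. Signals under 12.9 (the 25th percentile over both arrays) were set to that floor before log2. A gene took its detected probe set of highest mean signal, one ending in _x_at only where no other was detected. The local spread is the range from the 16th to the 84th percentile, divided by 2. With 1 array per group nothing was tested, and sizes were counted at 1.5-fold and 2-fold. The members, lists, motifs and alternatives were chosen with earlier results of these data known. Every detected member was to be named, and from each list the 3 genes of largest ratio among the brighter ones. Promoters came from RefSeq (GRCm38.p6). The procedure was tested on simulated data. Python 3.11.15, numpy 2.4.6, pandas 2.3.3, statsmodels 0.14.6 and matplotlib 3.10.9 were used.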

Additional observations from a re-analysis of the deposited data

How the results depend on the processing

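No paired analysis was possible because each group had 1 array. Median centring, quantile normalization and the pseudocount of 16 left every count within 1.5 times its value and the members' median within 0.1. Scaling to the poly-A controls put the members' median at -0.46, with 1 member higher and 20 lower, the TGF-beta targets at 0 higher and 17 lower, and the other pathway genes at 0 higher and 28 lower, while 2.88% of all detected genes were higher and 58.7% lower. It turned Bmp1 to -0.12, Ltbp2 to -0.024 and Smurf1 to -0.093. Hybridisation scaling gave a median of 0.040, 6 members higher, 2 TGF-beta targets higher and 7 lower, and 10 other pathway genes lower, with all genes at 8.97% higher and 23.4% lower. At 2-fold there were 4 members higher and 2 lower, 3 other pathway genes higher and 2 lower, 2 TGF-beta targets higher and 1 lower, and 1 BMP target lower. With the 75th percentile as detection limit 4 of 34 members and 0 of 3 BMP targets were lower. Of 38 other pathway genes 3 were higher and 3 lower. Without a limit the median was 0.13, with 9 other pathway genes and 3 BMP targets higher. Averaged probe sets gave a median of 0.14. Requiring all probe sets past 1.5-fold left 5 members, 2 TGF-beta targets and 3 BMP targets lower. BMP targets lower numbered 3 under loess and 2 without suffixed probe sets. Causes of these differences were not tested unless stated. Low signals limit what Nog, Bmp10 and Smad9 can show.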
